A study of Mus musculus with 4 samples.

Results

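Among 19749 genomic regions scored for 4 chromatin immunoprecipitation sequencing (ChIP-seq) libraries of mouse muscle cells, 934 (4.73%) had a coverage height of 32 or more in the library made with the peptide-blocked Mef2Da1 antibody. Coverage height is the maximal read pile-up in a region, as a whole number not scaled to depth. The regions were chosen by that blocked height, so their high Mef2Da1-BLOCK values are a description and not a result. The remaining 18815 regions had a blocked height below 32. They served for comparison after being weighted so that their Mef2Da1 heights were distributed like those of the 934. These are called height-matched regions below. All 934 regions had a comparison region of like Mef2Da1 height, and 17694 regions carried weight.

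All 4 libraries came from C2C12, a mouse myoblast line, differentiated for 5 days in low-serum medium with insulin and transferrin. The groups were endogenous Mef2Da1, endogenous Mef2Da2, and each of these antibodies blocked with the peptide it was raised against (Mef2Da1-BLOCK and Mef2Da2-BLOCK). Each group had 1 library, so no value carries a replicate error, no difference between libraries could be tested, and regions are not replicates. Chromatin was cut with micrococcal nuclease and sonicated, and libraries were amplified by 21 rounds of PCR. The number of reads per library is unknown.

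Mef2D is a MADS-box transcription factor that binds A/T-rich elements in the control regions of muscle and neuronal genes. Its messenger RNA is spliced through mutually exclusive exons, and the a2 form is the muscle isoform whereas the a1 form is widely expressed. Antibodies to the isoform-specific peptide tell them apart. When that peptide is added in excess, the antibody's binding site is occupied, and what still comes down is read as the background of the procedure.

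Mef2Da1 heights of the 934 regions ran from 23 to 405 with a median of 54 (quartiles 44 and 68). Over all regions below the blocked height of 32 the Mef2Da1 median was 42, so the selection favoured regions with more Mef2Da1 coverage, and the weighting brought the comparison median to 54. Mef2Da1-BLOCK heights of the 934 ran from 32 to 52 with a median of 34, against a median of 20 in the height-matched regions. The threshold cut through a continuous distribution. The 219 regions at a blocked height of 32 had median heights of 51 for Mef2Da1, 35 for Mef2Da2 and 17 for Mef2Da2-BLOCK. The 263 regions at 31 had 52, 36 and 16.

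The other blocked antibody was also higher in these regions. Mef2Da2-BLOCK, a library that took no part in the selection, had a median height of 16 (quartiles 13 and 20, range 3 to 37) over the 934 regions, against 13 (quartiles 9 and 17) in the height-matched regions. A Mef2Da2-BLOCK height at or above 20, the 90th percentile of the table, was reached by 249 of 934 regions, or 26.7% (exact binomial 95% interval 23.8 to 29.6). The share was 12.5% in the height-matched regions and 10.4% over the whole table. The intervals of such shares cover counting error only and treat regions as independent. Matched within chromosome in bins of 5 height units, where 916 of the 934 regions could be compared, the shares were 26.2% and 13.7%. Matched on Mef2Da1 height as before and on region width quartile, the comparison share was 14.6%.

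Mef2Da2 with the free antibody went the other way. Its median height was 36 (quartiles 27 and 51, range 9 to 386) over the 934 regions and 43 (quartiles 29 and 70) in the height-matched regions. This gap rests on the matching, since the median was 37 both in unweighted regions below the threshold and over the whole table. The gap depended on how tall Mef2Da1 was. Heights were not matched further within the bands given here. With Mef2Da1 below 40, the Mef2Da2 median was 32 in 110 regions of high blocked height and 34 in 7680 others. From 40 to below 50 it was 30 in 255 and 31 in 5089. From 50 to below 60 it was 32 in 215 against 39 in 2476. With Mef2Da1 from 60 to below 80 it was 41 in 208 regions against 59 in 2084. With Mef2Da1 from 80 to below 120 it was 77 in 113 against 90 in 1051. Among the tallest, with Mef2Da1 at 120 or more, it was 159 in 33 regions against 148 in 435. The lower Mef2Da2 height was therefore read mostly at Mef2Da1 heights from 50 to below 120, and not in the 33 regions at the top. Mef2Da2-BLOCK, by contrast, was higher in each of these bands. From the lowest band up it was 14 against 10, 15 against 12 and 17 against 13. In the higher bands it was 18 against 13, 15 against 13 and 20 against 14.

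**Figure D1:**
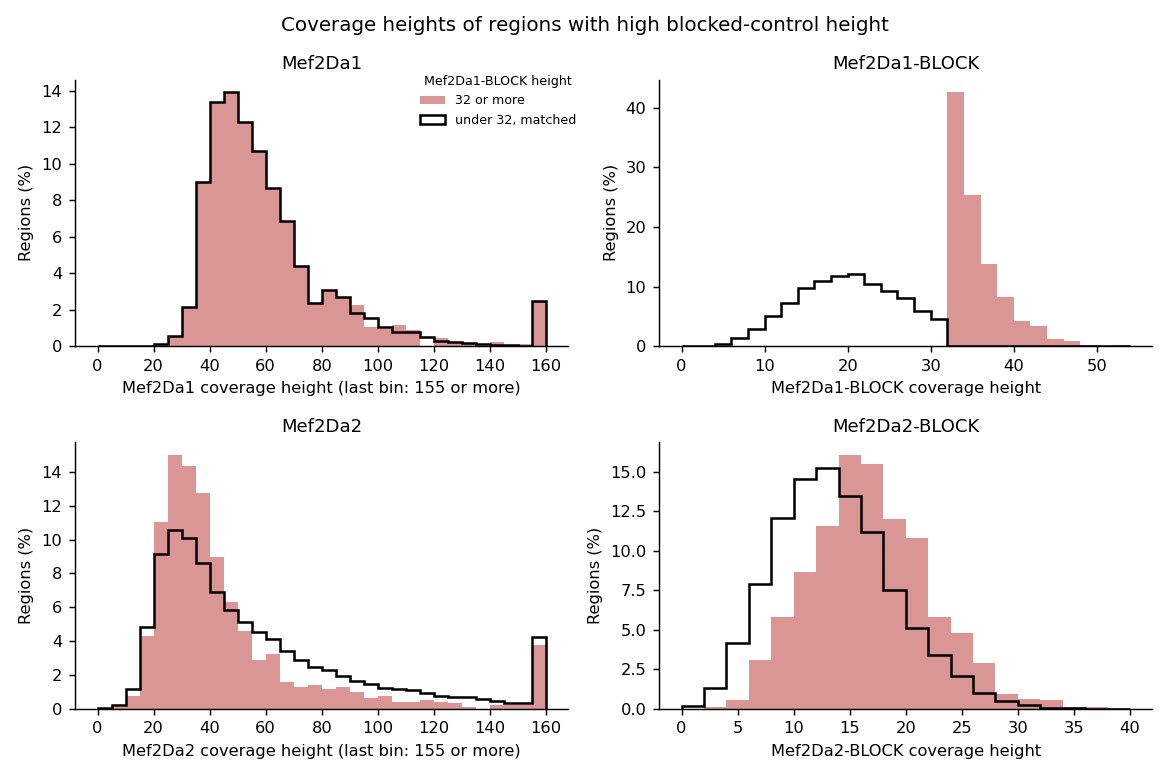
Distribution of coverage height (x axis, no unit) in the 4 libraries, as percent of regions (y axis). Filled bars are the 934 regions with a Mef2Da1-BLOCK height of 32 or more and the black line the height-matched regions. Mef2Da1 distributions nearly coincide by construction and Mef2Da1-BLOCK is split by the selection. Against the height-matched regions, Mef2Da2 is shifted down (medians 36 and 43) and Mef2Da2-BLOCK up (medians 16 and 13). In unweighted regions below the threshold, not drawn, the Mef2Da2 median was 37.

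The ratio of free to blocked antibody was lower at these regions than in the height-matched ones. Without scaling and with a pseudocount of 1, the median log2 ratio of Mef2Da1 to Mef2Da1-BLOCK was 0.62 (quartiles 0.35 and 0.94). That median was 1.47 in the height-matched regions and 1.19 over the table, and the selection itself brings the low value. Mef2Da1 was at least 2-fold above its blocked control in 211 of 934 regions (22.6%), and in 64.7% of all regions. For Mef2Da2, whose libraries were not used in the selection, the median log2 ratio to Mef2Da2-BLOCK was 1.17 in the 934 regions and 1.77 in the height-matched ones. Mef2Da2 was at least 2-fold above its control in 564 regions (60.4%, interval 57.2 to 63.5), against 75.95% of the height-matched regions and 75% of all regions. Scaling each pair of libraries to its median ratio over the table turned the sign of both medians, to -0.57 for Mef2Da1 and -0.46 for Mef2Da2, which are the distances below the table's own median.

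In 46 of the 934 regions (4.93%) the blocked library was as high as or higher than Mef2Da1 itself, with median heights of 37.5 for Mef2Da1-BLOCK and 34.5 for Mef2Da1. The share was 0.724% over all regions, and it is a description, since the selection used the blocked height. None of these 46 held a listed Mef2Da1 peak, and 9 held a listed Mef2Da2 peak. Below the threshold, 74 of the 97 regions of this kind held a Mef2Da2 peak, and the 97 had a median Mef2Da1 height of 20. The lowest sum of both isoforms' −log10 p in the table was 6.06, so low Mef2Da1 came only with higher Mef2Da2. That floor favours Mef2Da2 peaks in the 97, so the contrast with the 46 is a description. Among the 934, the lowest ratio was at chr3:122843042-122843726 (build mm9). Mef2Da1 stood there at 23 and Mef2Da1-BLOCK at 34, while Mef2Da2 stood at 40 and Mef2Da2-BLOCK at 6. At chr1:180379375-180379663 the heights were 28 for Mef2Da1, 35 for Mef2Da1-BLOCK, 54 for Mef2Da2 and 3 for Mef2Da2-BLOCK. In these regions the order of free and blocked antibody was opposite for the isoforms, a pattern that the same floor favours where Mef2Da1 is low. Further low ratios were at chr4:149745865-149746511, with Mef2Da1 at 29 and its blocked control at 36, at chr5:126672367-126672970, with 34 and 42, and at chr8:86307112-86307546, again with 34 and 42. Mef2Da2 stood at 35, 36 and 40 in these regions and its blocked control at 5, 7 and 24.

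The authors deposited a list of peaks for each isoform, and a region counted as listed where it shared at least 1 bp with a peak. A Mef2Da1 peak was listed in 471 of the 934 regions, or 50.4% (interval 47.2 to 53.7), against 71.3% of the height-matched regions and 41.8% of all regions. A Mef2Da2 peak was listed in 403, or 43.1% (39.9 to 46.4), against 56.8% and 46.7%. Peaks of both isoforms were listed in 250 regions (26.8%), against 48.4% of the height-matched regions and 26.6% of all regions. A Mef2Da1 peak alone was listed in 221 (23.7%, against 22.9% and 15.2%) and a Mef2Da2 peak alone in 153 (16.4%, against 8.40% and 20.1%). The remaining 310 had no listed peak (33.2%, against 20.3% and 38.1%). These contrasts rest on the matching. Against unweighted regions below the threshold, the order was the opposite for a Mef2Da1 peak (50.4% against 41.4%), a Mef2Da2 peak alone (against 20.3%) and no listed peak (against 38.4%). Peaks of both were then about as frequent, at 26.8% against 26.6%, and Mef2Da2 peaks were at 43.1% against 46.8%.

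The shortfall of listed Mef2Da1 peaks set in within a narrow range of blocked height. The authors' −log10 p of Mef2Da1, none below 6 in the peak list, was 6 or more in 643 of the 934 regions (68.8%, against 68.9% of the height-matched regions and 40.5% of all regions). Among regions with that value, a Mef2Da1 peak was listed in 97.8% of 848 at a blocked height of 28 to 31. At 32 to 33 it was listed in 96.5% of 259 (interval 93.5 to 98.4). At 34 to 35 the share was 81.8% of 165 (75.1 to 87.4). At 36 to 37 it was 67.4% of 95 (57.0 to 76.6). At 38 to 39 it was 3.51% of 57 (0.428 to 12.1), and at 40 to 52 it was 2.99% of 67 (0.364 to 10.4). Up to a blocked height of 33 nearly every such region was listed, and from 38 on nearly none. Whether the peak caller used the blocked library is not given in the sources used here, so Mef2Da1 listing is not taken as independent of the selection.

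The same step appeared by the authors' score of the blocked library, a −log10 p that falls below 0 in a few regions of the table. That score largely follows the blocked height, so it gives no separate observation. Among the 934 regions with a Mef2Da1 −log10 p of 6 or more, 443 of 506 with a blocked score below 5 were listed (87.5%), and 10 of 137 with a score of 5 or more (7.30%, interval 3.56 to 13.0). The 127 unlisted ones had a median Mef2Da1 height of 62, equal to the 62 of the listed regions with a score below 5. Within a score class the unlisted regions had the lower median Mef2Da1 height. It was 51 in 63 unlisted regions against 62 in listed ones below a score of 5. At 5 or more it was 62 against 66.5 in the 10 listed.

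Mef2Da2 peaks showed no such step along the blocked height of Mef2Da1. Where the −log10 p of Mef2Da2 was 6 or more, its peak was listed in 98.1% of 161 regions at a Mef2Da1-BLOCK height of 32 to 33, in 94 of 94 at 36 to 39 and in 97.7% of 44 at 40 to 52. Mef2Da2 reached that −log10 p in 396 of the 934 regions (42.4%), against 56.3% of the height-matched regions and 46.1% of all regions. The lower share of listed Mef2Da2 peaks thus went with lower Mef2Da2 signal, whereas the Mef2Da1 signal was equal by construction. Mef2Da2-BLOCK gave too few high scores for the same reading: 1 of the 396 regions had a Mef2Da2-BLOCK score of 5 or more, and it was listed. Over all regions with that Mef2Da2 −log10 p, a Mef2Da2 peak was listed in 98.8% of 328 with a Mef2Da2-BLOCK score of 3 to below 4. The share was 87.5% of 40 (interval 73.2 to 95.8) at 4 to below 4.5 and 71.4% of 7 at 4.5 to below 5. At 5 or more, 2 of 3 were listed.

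**Figure D2:**
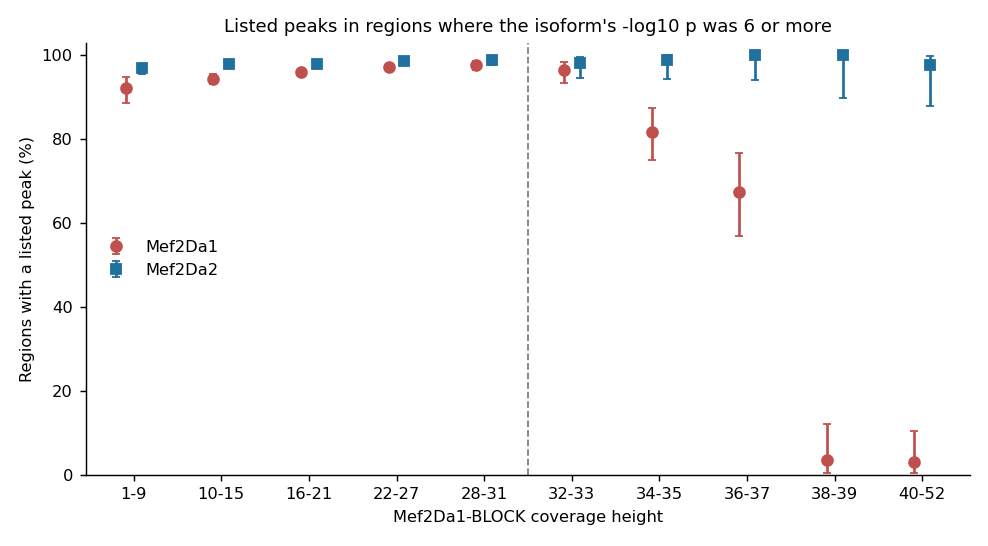
Percent of regions with a listed peak (y axis) by Mef2Da1-BLOCK coverage height (x axis), for regions where the same isoform's −log10 p was 6 or more. Points are shares, bars exact binomial 95% intervals, and the dashed line marks the height of 32. Mef2Da1 drops from 96.5% at 32 to 33 to 3.51% at 38 to 39, while Mef2Da2 stays at 97.7% or above from 32 on.

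In all, 190 of the 934 regions (20.3%) had a Mef2Da1 −log10 p of 6 or more and no listed Mef2Da1 peak, compared with 291 of 18815 (1.55%) below the threshold. These shares are not height-matched. That −log10 p was reached by 643 of the 934 (68.8%) and by 7360 regions below the threshold (39.1%). In the 190 the median Mef2Da1 height was 58, with a range of 44 to 350, and in the 291 it was 46 and no height exceeded 52. A Mef2Da2 peak was listed in 104 of the 190 and in 145 of the 291, with 46.7% over all regions.

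The listed and unlisted regions compared next all had a Mef2Da1 −log10 p of 6 or more. Among them, listed regions had greater median widths and Mef2Da1 heights than unlisted ones of like blocked height, with wide overlap. At a blocked height of 34 to 35, the median width was 831 bp in 135 listed regions and 542.5 bp in 30 unlisted ones, and their Mef2Da1 medians were 64 and 51.5. Widths there ran from 327 to 2484 bp and from 290 to 1939 bp. At 36 to 37 the median widths were 1011.5 bp in 64 and 699 bp in 31, and the Mef2Da1 medians 66.5 and 54. At 38 or more, the 4 listed regions were 1083 to 1832 bp wide with a Mef2Da1 median of 127.5, and the 120 unlisted ones were 317 to 3471 bp wide with a Mef2Da1 median of 61.5. The table gives the highest point of each library within a region, so in a wide region the blocked maximum and the listed peak need not lie at the same place. Whether they did was not tested.

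**Figure D3:**
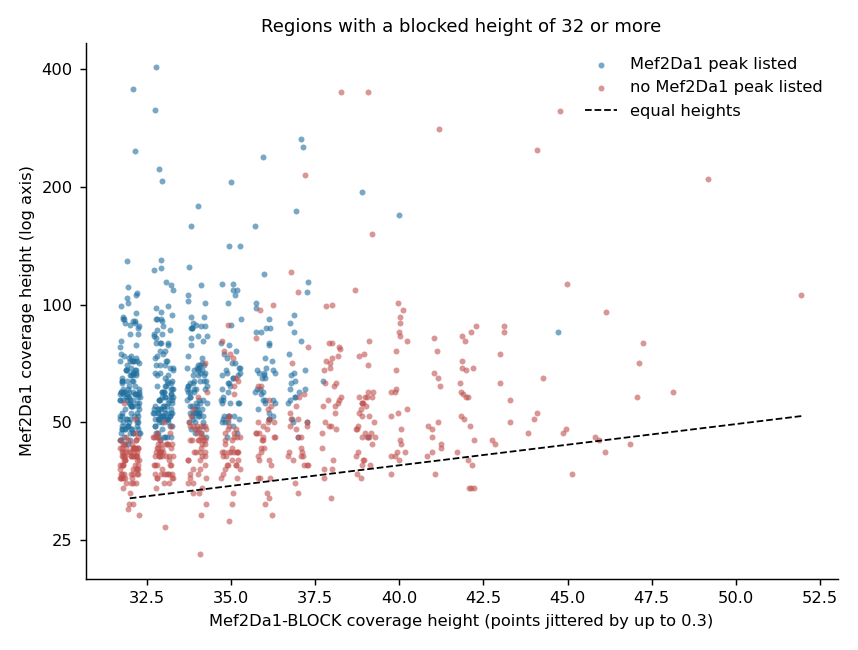
Mef2Da1 coverage height (y axis, log scale) against Mef2Da1-BLOCK coverage height (x axis) for the 934 regions, coloured by whether a Mef2Da1 peak was listed. Blue points (listed) end near a blocked height of 38 with few beyond, and red points to the right of it reach a Mef2Da1 height of 350.

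The regions with the highest Mef2Da1-BLOCK heights were varied in the other libraries. At chr15:82979178-82980777 the blocked height was the highest of the table, 52, with 106 for Mef2Da1, 77 for Mef2Da2 and 15 for Mef2Da2-BLOCK. Next was chr8:87187743-87188445, with a blocked height of 49 and heights of 210, 154 and 20. At chr15:103002852-103003616 the blocked height was 48, with 60 for Mef2Da1, 41 for Mef2Da2 and 18 for Mef2Da2-BLOCK. In these regions Mef2Da2 had a listed peak and Mef2Da1 had none.

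A blocked height of 47 was reached in 4 regions. At chr4:134408784-134410336 Mef2Da1 stood at 80 and Mef2Da2 at 58, and at chr10:80639045-80640223 they stood at 71 and 44. At chr15:78656897-78657448 they stood at 58 and 42, with a low Mef2Da2-BLOCK height of 7. At chr17:31050951-31051687 Mef2Da1 stood at 44, below its blocked control, and Mef2Da2 at 22. Mef2Da1 and Mef2Da1-BLOCK were equal at 46 in chr2:32438879-32439403. Mef2Da2 was listed in the first 3 of these 5 regions, and Mef2Da1 in none.

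Tall Mef2Da1 signal also occurred among the 934. The tallest was at chr10:80401686-80404955, a region 3270 bp wide, with heights of 405 for Mef2Da1, 33 for Mef2Da1-BLOCK, 369 for Mef2Da2 and 19 for Mef2Da2-BLOCK, and both isoforms were listed there. At chr17:7031318-7032946 the heights were 356, 32, 159 and 17, and at chr8:87258579-87260164 they were 314, 33, 255 and 25, with both isoforms listed in each. At chr1:94683390-94684276 (350, 38, 342 and 33) and chr11:54335886-54336719 (350, 39, 163 and 22) Mef2Da2 alone was listed. The log2 ratio to the blocked control was 3.13 or more in these tall regions, whether listed or not.

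The highest Mef2Da2 signal among the 934 was at chr15:79073230-79074435, with heights of 386 for Mef2Da2, 26 for Mef2Da2-BLOCK, 248 for Mef2Da1 and 44 for Mef2Da1-BLOCK. At chr1:135994927-135998484 Mef2Da2 stood at 349 and Mef2Da1 at 80, with 20 and 36 in their blocked controls and 3 listed peaks of each isoform. At chr1:73961495-73962646 Mef2Da2 stood at 324 and Mef2Da1 at 312, with 21 and 45 in the blocked controls. In the first and the last of these Mef2Da1 was not listed.

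Regions without a listed peak of either isoform reached a Mef2Da1 height of 90, at chr8:97958399-97959279, where Mef2Da1-BLOCK stood at 40, Mef2Da2 at 23 and Mef2Da2-BLOCK at 15. At chr5:136592228-136592993 the heights were 81, 40, 26 and 15. Mef2Da1 stood at 75 in both chr12:32611466-32612004 and chr12:101437510-101438188, with Mef2Da1-BLOCK at 35 and 43, and at 74 in chr13:114408347-114409040, with 39. Below the blocked threshold, no region without any listed peak exceeded a Mef2Da1 height of 52.

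Mef2Da2-BLOCK varied widely among the 934 regions. It was 3 to 9 in 89 regions, whose median width was 503 bp and median Mef2Da1 height 46, and of which 28.1% held a listed Mef2Da1 peak and 33.7% a Mef2Da2 peak. It was 25 to 37 in 72 regions, with a median width of 1070 bp, a median Mef2Da1 height of 59.5, a listed Mef2Da1 peak in 66.7% and a Mef2Da2 peak in 51.4%. Over all regions a Mef2Da1 peak was listed in 41.8% and a Mef2Da2 peak in 46.7%. The median Mef2Da1-BLOCK height was 34 in both groups, and the part of width and Mef2Da1 height in their listed shares was not tested. The highest Mef2Da2-BLOCK height, 37, was at chr8:87595406-87596541, where Mef2Da1-BLOCK also stood at 37, Mef2Da1 at 61 and Mef2Da2 at 42. At chr8:86710261-86711750 both blocked controls stood at 34, with Mef2Da1 at 45 and Mef2Da2 at 38. The blocked controls of Mef2Da1 and Mef2Da2 were 36 and 33 at chr11:118109607-118110454, and 33 and 32 at chr2:26153865-26154418, where Mef2Da2 was lower than its own control, at 28.

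The regions were wider than others. Their median width was 754 bp (quartiles 558 and 1068) against 625 bp in the height-matched regions and 557 bp over the table, and 27.4% of them, against 13.4%, were at or above the table's 90th percentile of width. They also lay among more other regions, with a mean of 6.31 other regions within 100 kb against 5.19 for the height-matched ones.

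Their share differed between chromosomes. They made up 9.99% (interval 8.49 to 11.6) of the 1452 regions of chromosome 15, 8.21% (6.71 to 9.91) of the 1194 of chromosome 8 and 6.29% (4.88 to 7.97) of the 1017 of chromosome 17, against 4.73% over all 19 autosomes. On chromosome 7 they made up 1.05% (0.481 to 1.98), 9 of 858 regions. The other chromosomes lay between 3.10% and 5.30%. The second blocked library followed the same order at the ends. Over all regions of a chromosome the mean Mef2Da2-BLOCK height was 14.6 on chromosome 15 and 10.5 on chromosome 7, against 12.5 over the table, and the mean Mef2Da1-BLOCK height was 22.5, 15.99 and 19.1. Mef2Da1 differed less, with means of 50.7, 47.8 and 49.3, and medians of 44, 41 and 43. Its lowest mean was on chromosome 4, at 47.4. Mef2Da2 means were 47.5, 47.8 and 48.4. Median region width was 626 bp on chromosome 15 and 503 bp on chromosome 7, against 557 bp over the table, and its part in these differences was not tested.

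**Figure D4:**
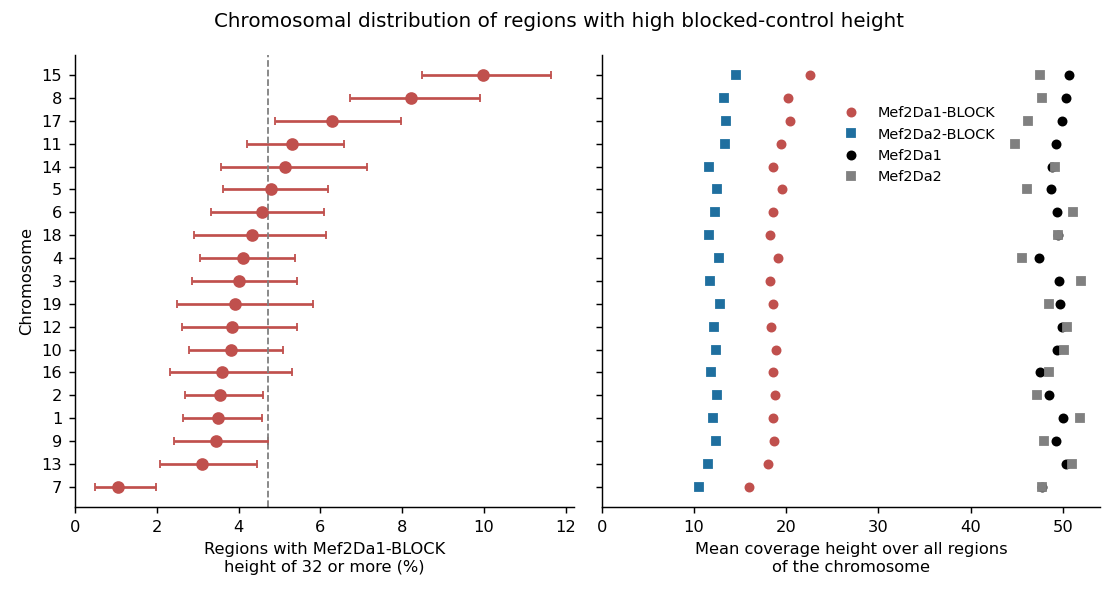
Left, percent of each chromosome's regions that had a Mef2Da1-BLOCK height of 32 or more (points, with exact binomial 95% intervals; the dashed line is the share over all chromosomes, 4.73%). Right, mean coverage height over all regions of the chromosome in the 4 libraries, where chromosome 15 is highest and chromosome 7 lowest in both blocked libraries, and chromosome 15 also has the highest mean Mef2Da1.

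Within chromosome 8 the regions were concentrated in a short stretch. Of the 114 regions that start between 86 and 88 Mb, 40 (35.1%) had a blocked height of 32 or more, against 58 of 1080 (5.37%) on the rest of the chromosome. These were the 2 windows of 1 Mb with the most such regions in the table, 21 and 19, and the stretch was picked for that. Over all 114 regions the medians were 29 for Mef2Da1-BLOCK and 18 for Mef2Da2-BLOCK, against 19 and 12 on the rest of the chromosome. The medians for Mef2Da1 were 44 against 43 and for Mef2Da2 30 against 36. The Mef2Da1-BLOCK values follow in part from how the stretch was picked, whereas Mef2Da2-BLOCK was not used for it. In the 74 regions of the stretch below the threshold the Mef2Da2-BLOCK median was 15, against 12 below the threshold on the rest of the chromosome. Median widths of these were 707 bp and 561.5 bp, and the part of width in this difference was not tested. Of the 40 regions, 13 (32.5%) held a listed Mef2Da1 peak and 16 (40%) a listed Mef2Da2 peak. The shares were 51.2% and 43.3% in regions of high blocked height outside the stretch. They were 37.8% and 25.7% below the threshold within the stretch, and 41.8% and 46.7% over all regions. Further windows with many such regions were chromosome 15 at 76 to 77 Mb, with 17 of 67, and chromosome 8 at 97 to 98 Mb, with 12 of 44.

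**Figure D5:**
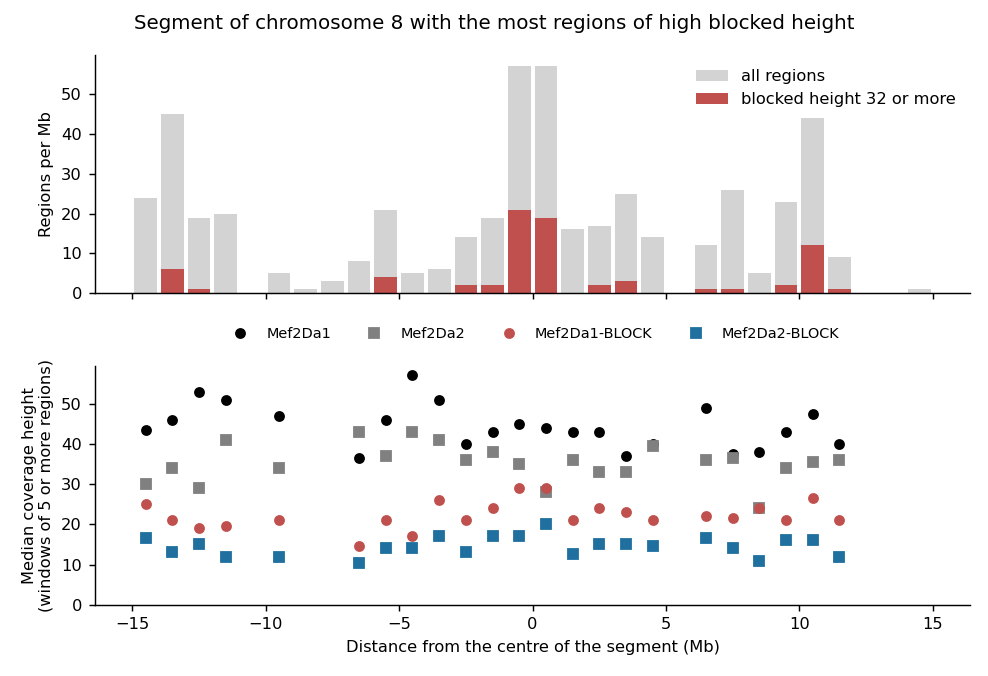
Top, regions per Mb along chromosome 8 by distance from the centre of the stretch (x axis, Mb), with all regions in grey and those with a blocked height of 32 or more in red. Bottom, median coverage height of the 4 libraries in windows of 5 or more regions. Of the windows drawn, those within 15 Mb of the centre, the central pair has the highest Mef2Da1-BLOCK medians, 29 in each, with Mef2Da2-BLOCK at 17 and 20. The stretch was picked by Mef2Da1-BLOCK. Mef2Da2-BLOCK is also at 17 in the windows at 83 to 84 and 85 to 86 Mb.

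Regions of high blocked height more often had another such region within 100 kb, counted between midpoints. The share was 33.6%, against 20.3% of the height-matched regions and 20.2% of all regions. Within 10 kb most stood alone, and no comparison share was computed at that distance. Of the 934, 855 had no other within 10 kb, and 79 fell into 35 groups. The largest group, of 5 regions, spanned 18.4 kb at chr8:87249546-87267905, with Mef2Da1-BLOCK heights of 32 to 42, Mef2Da1 heights of 44 to 314 and 1 region with a listed Mef2Da1 peak. A group of 4 spanned 7.42 kb at chr17:31044266-31051687, with blocked heights of 32 to 47, Mef2Da1 heights of 32 to 54, Mef2Da2 heights of 20 to 25 and no listed peak. A group of 3 at chr6:89294865-89300782 had lower blocked heights, 32 to 33, and a listed Mef2Da1 peak in all 3. Groups with the same 10 kb spacing thus ranged from no listed Mef2Da1 peak to a peak in every region.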

How the data were processed

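ChIP-seq of 4 libraries (1 for each of 4 groups, taken from the sample titles) was analysed. Per the submitters' processing notes, reads were handled with BWA 0.5.9 and the mouse build mm9. Not given in the sources used here are the peak caller, its filters, the depth and how combined regions were chosen. The authors deposited a table of 19749 regions and 2 peak lists. The coverage signal was deposited as a whole-number height per region or peak, not scaled to depth, per the file headers and values. The deposited −log10 p values are the authors', and for the blocked libraries that deposited column was treated as a score because a few values lie below 0. Table columns were matched to samples through the peak lists' names and the titles. The depth is unknown.

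Regions below the threshold were weighted so that at each exact Mef2Da1 height (above 89, the 90th percentile of the chosen regions, in bins growing by 10%) they carried as much weight as the chosen regions there. Medians and shares were then compared within a library, where scaling plays no part. Shares carry exact (Clopper-Pearson) 95% intervals. No test between groups was possible. Ratio results used a pseudocount of 1, and 2-fold is a log2 ratio of 1. Named regions were the extremes of blocked height (8), of Mef2Da2-BLOCK, Mef2Da1 and Mef2Da2 height, of lowest ratio and of Mef2Da1 height without listed peak (5 each), and the 3 largest groups within 10 kb, ties going to the first in the table. The regions, threshold and comparisons were chosen with earlier results of these data known. The code was tested on simulated data. Coordinates are mm9 as the table gives them. No genome or annotation of that build was used here, so genes, promoters and sequences are not reported. Software was Matplotlib 3.10.9, SciPy 1.17.1, pandas 2.3.3 and NumPy 2.4.6 under Python 3.11.15.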

Additional observations from a re-analysis of the deposited data

How the results depend on the processing

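Of 85 alternative values, 53 stayed within the 95% binomial interval of the main value (for medians, the order-statistic interval), 25 moved beyond it and 7 changed sign. Differences below are chosen minus height-matched regions, in percentage points for shares. Without matching, the difference was 9.07 for listed Mef2Da1 peaks, 0.208 for peaks of both and -5.17 for no listed peak, each of opposite sign to the main value, and -3.69 for listed Mef2Da2 peaks and -1 for the Mef2Da2 median height; taller Mef2Da1 in the chosen regions is what matching removes. At a threshold of 28 (2370 regions) it was -8.51 for listed Mef2Da1 peaks, -13.8 for both and 7.50 for none, and 16.8% of regions had another within 10 kb. At 40 (93 regions) it was -70.3, -50.7 and 32.2, with -10 for the Mef2Da2 median and 18.0 for high Mef2Da2-BLOCK; 18.3% lay on chromosome 8 and 4.30% had another within 10 kb. With listed peaks of −log10 p 8 or more it was -10.4 for Mef2Da1, -16.9 for Mef2Da2 and -15.0 for both. Grouped by gaps of up to 100 kb between regions, and not by midpoints, 33.8% had another. The median log2 ratio and the 2-fold share were 0.57 and 17.5% for Mef2Da1 and 1.00 and 51.1% for Mef2Da2 with a pseudocount of 5, -0.71 and 1.82%, and -0.67 and 6.10%, scaled to total height, and -0.57 and 2.14%, and -0.46 and 8.46%, scaled to the median ratio. Such scaling sets the table's centre to about 0 by construction. The cause of the other moves was not tested. Bins of 5 units, width, chromosome 15 left out, matching within chromosome and the stretch of chromosome 8 left out changed no direction; the last pair of alternatives was chosen after seeing the data. Requiring 50% of a peak inside a region changed no region and tests nothing. Results needing genes were not run. No paired analysis was possible because each group had 1 library. Unknown depth limits every comparison of heights between libraries.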

Other observations

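The authors' score of a blocked height was not fixed by the height. At a Mef2Da1-BLOCK height of 32, 158 of 219 regions had a score of 4.03, and the others ran from 3.96 to 5.19. At a height of 40, 19 of 25 had 5.49, with a range of 5.33 to 5.92.

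In regions of high blocked height with exactly 1 listed Mef2Da1 peak, the −log10 p of the list exceeded that of the combined table by a median of 0.011, with an upper quartile of 0.70. In 166 of 444 the list's value was the lower of these. The height was the same in the list and the table in 443 of 444.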
